A study of Mus musculus with 8 samples.

Results

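Lyz2 encodes lysozyme M, the lysozyme that macrophages and other myeloid cells secrete and keep in their lysosomes. Its peaks of N4-acetylcytidine (ac4C), an acetylated cytosine in RNA, were taken as all peaks that shared 1 base or more, on the minus strand, with chromosome 10 from 117113 to 117119 kb in mm39. There were 3 such peaks among the 105252 peaks of 4 deposited lists. The gene was chosen from these same lists because its strongest peak was present in both wild-type lists and missing from the knockout lists. The presence and rank of its peaks between the genotypes are therefore given as a description, with no test.

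The lists came from bone marrow-derived monocytes of wild-type (WT) mice and of mice in which Nat10, the enzyme that writes ac4C, was conditionally knocked out (CKO). Cells of both genotypes had been treated with RANKL, the cytokine that drives monocytes to osteoclasts, for 3 days. RNA was fragmented and precipitated with an antibody to ac4C (IP), and each of the 4 IP samples was set against its own input by the authors, which gave 2 peak lists per genotype. The labels name neither the Cre driver of the knockout nor the age or strain of the mice, and do not say whether replicates 1 and 2 came from separate mice or cultures. Cre placed in the Lyz2 gene, known as LysM-Cre, is a widely used driver for monocytes, macrophages and their descendants, and that insertion interrupts the lysozyme coding sequence of the allele that carries it. The sources used here do not say whether the CKO cells carried this allele, so a change of the Lyz2 locus itself, a change in Lyz2 mRNA and a change in ac4C cannot be told apart. In such bulk samples, fewer cells of a type and less RNA per cell cannot be told apart either.

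Lysozyme cuts the peptidoglycan of bacterial cell walls. Mice have a pair of lysozyme genes: Lyz2 is the form of macrophages and other myeloid cells, and Lyz1 is best known from the Paneth cells of the small intestine. In the gene order of the RefSeq table at hand (GRCm38.p6), Lyz1 is the next protein-coding gene on the side of higher coordinates, and Cpsf6, a subunit of the complex that directs the 3′ end processing of mRNA, follows it. On the other side stand 9530003J23Rik and then Yeats4, a chromatin reader of acetylated histones.

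The sequences of both lysozyme genes around their starts show how alike the copies are at that end. RefSeq gives, for the 20 coding bases from the start codon on the minus strand of GRCm38.p6, with the differing base in capitals:
Lyz2, chr10:117282223-117282242: atgaagActctcctgactct
Lyz1, chr10:117292819-117292838: atgaagGctctcctgactct
The difference is A7G, counted from the first base of the start codon, with the Lyz2 base first. The 30 bases just before the annotated transcript start did not differ and hold no capitals:
Lyz2, chr10:117282273-117282302: gcttaaatagcaggcatgctttctctagtc
Lyz1, chr10:117292869-117292898: gcttaaatagcaggcatgctttctctagtc
Over the 50 bases after the start the genes differed at 1 base, and over the 100 bases before it at 8 (92.0% identical). Compared base by base without gaps, the whole 250 bases before the start were 60.8% identical. The sources used here do not say how the authors' alignment treated reads that fit both genes, so the assignment of reads between Lyz2 and Lyz1 is uncertain. Of the compared bases, only the 50 after the start are in the RNA. The sequences of the peaks themselves were not used here, so how alike the genes are at the peaks was not examined.

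Before the values, the lists differ in ways that bear on them. The lists hold 24249 to 28087 peaks each, with no read counts, so the depth behind each peak is unknown. WT list 2 stands apart in peak shape: 6.5% of its peaks were exactly 200 bases long, against 24.0% to 24.4% in the other 3 lists. Of the 10 peaks with the highest scores in WT list 2, 6 were found in no other list, against 1 of 10 in each of the other lists. The score is the authors' own value for each peak, of unstated kind. Peaks are ranked by it within a list, as a percentile (the share of the list's peaks with that score or a lower one). Scores and multiples of a list's median are also printed, but what such multiples measure is not known. The median score was 29.5 in WT list 2, against 71.3 to 116.5 in the other lists.

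Lyz2 carried one of the strongest peaks of each WT list and no listed peak in either CKO list. WT list 1 held 1 peak at Lyz2, WT list 2 held 2, and CKO lists 1 and 2 each held 0. WT thus averaged 1.5 ± 0.71 peaks (SD over 2 lists), against 0 in both CKO lists. The genotypes did not overlap, but the gene was chosen for this pattern, and 2 lists against 2 could not reach an exact two-sided p below 0.33. For background, 4.26% of all 75389 regions with a peak (3210 regions) had one in both WT lists and in neither CKO list, and 3.64% (2741) had the opposite pattern. A region found in 1 list only could have neither pattern. Of the 6299 regions with a peak in both WT lists, 3210 had none in either CKO list. Of the 5811 in both CKO lists, 2741 had none in either WT list. The pattern was thus common among regions held by both lists of a genotype. Regions here are peaks of any list joined where they share 1 base or more on the same strand.

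The peak of WT list 1 lay at bases 117114051 to 117114092 and was 42 bases long. Its score of 10810.5 in the authors' deposited table was the 4th highest of 28065 peaks (percentile 99.99) and 150 times the median of that list. The longer peak of WT list 2 lay at 117113756 to 117114092, 337 bases. Its score of 16592.2 was the highest of the 24851 peaks of that list (percentile 100.0), 562 times the list's median, and the next highest score there was 11902.9. No peak of WT list 2 therefore stood above Lyz2, and only 3 of WT list 1 did.

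These peaks overlapped over 42 bases, which is all of the WT 1 peak and 12.5% of the WT 2 peak. They ended at the same base, 117114092, while their starts lay 295 bases apart. Such shared ends are frequent in these lists: of the 6342 overlapping pairs of peaks of the 2 WT lists, 42.2% had the same end, and of the 5758 pairs of the 2 CKO lists 38.3%. The WT 1 peak was narrow, with 19.7% of its list narrower still, and the WT 2 peak was wide, with 93.4% of its list narrower. Peaks of 200 bases or more alone left Lyz2 with 1 WT 2 peak and no region held by both WT lists.

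WT list 2 held a further peak at bases 117116627 to 117116710, 84 bases long and 2534 bases from the first. Its score of 2365.5 ranked it 21st of 24851 (percentile 99.92). No other list had a peak there. Of the 11638 regions found in WT list 2 alone it was the 12th by score, and 50 of the 100 highest-scored peaks of that list were likewise in no other list. Lyz2 thus held 2 regions, of which 1 was shared by the WT lists and 1 rested on WT list 2.

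Both regions together covered 421 bases, 7.0% of the 6 kb. Covered length was 42 bases in WT list 1, 421 in WT list 2 and 0 in both CKO lists. The WT lists differed from each other by nearly as much as the larger of them differed from CKO, and the WT mean of 231.5 ± 268 bases (SD, n = 2) shows this spread. Both WT lists held only the 42 bases at the high end of the shared region. That region, as merged, began with the WT 2 peak, 756 bases from the low edge of the 6 kb. Since Lyz2 runs on the minus strand, this is its 3′ side, and the region of WT list 2 alone lay nearer the 5′ side. Exons, introns and UTRs of mm39 were not used here, so neither region is assigned to one.

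**Figure D1:**
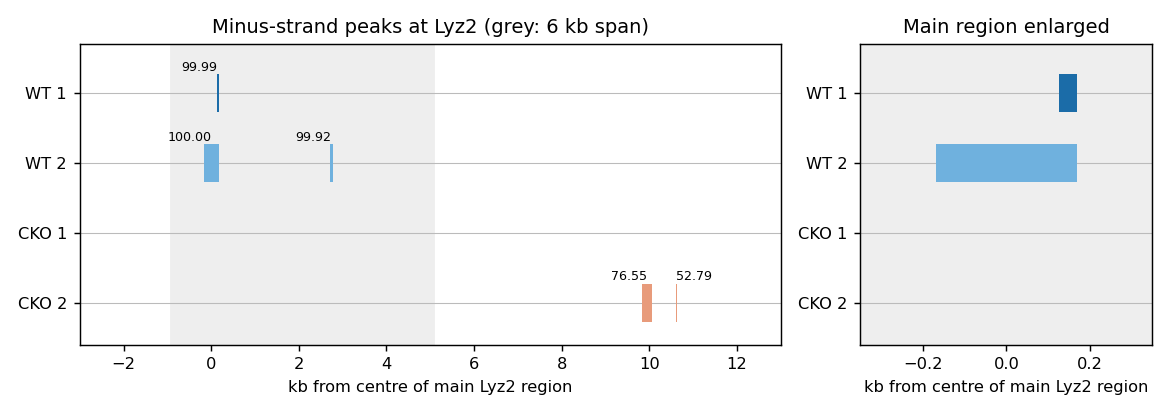
Minus-strand peaks of the 4 lists at Lyz2, by distance in kb from the centre of the region shared by the WT lists (left, with each peak's percentile within its list above it; right, the shared region enlarged; grey, the 6 kb taken as Lyz2). The WT 1 and WT 2 peaks end together, the CKO lists have no bar in the grey area, and the 2 CKO 2 peaks stand on the side of Lyz1 at percentiles 76.55 and 52.79.

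**Figure D2:**
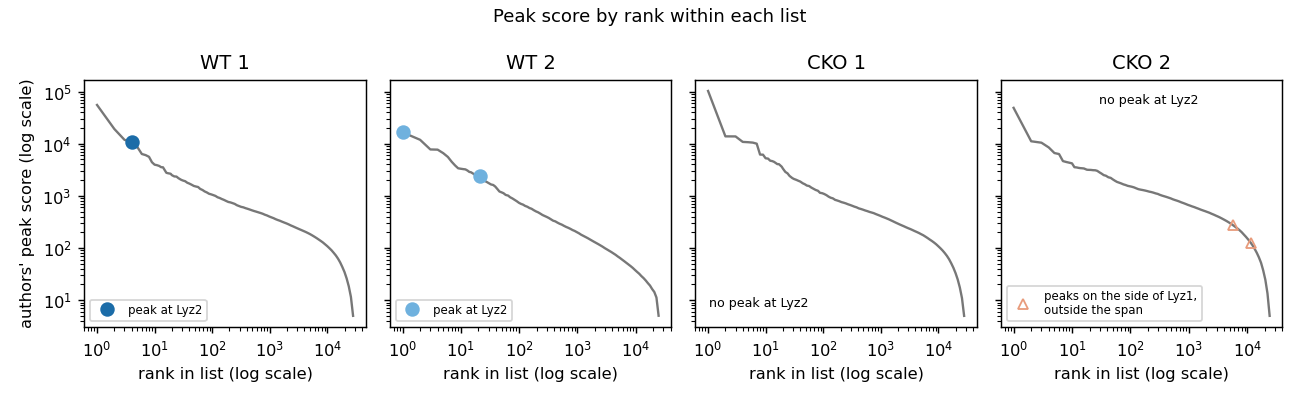
The authors' peak score (log axis) against rank within each list (log axis; grey line, all peaks; filled circles, peaks at Lyz2; open triangles, the 2 CKO 2 peaks on the side of Lyz1). Lyz2 stands at rank 4 of WT 1 and at ranks 1 and 21 of WT 2, and the CKO 2 triangles at ranks 5687 and 11450.

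The listed knockout peaks nearest to Lyz2 lay on the side of Lyz1 and were in one CKO list only. CKO list 2 had a peak at bases 117123753 to 117123991 (239 bases, score 275.1, percentile 76.55) and one at 117124525 to 117124554 (30 bases, score 127.2, percentile 52.79). They began 9660 and 10432 bases beyond the shared Lyz2 region and 4752 and 5524 bases beyond the upper edge used for Lyz2. WT lists 1 and 2 and CKO list 1 had no minus-strand peak within 10 kb of that edge, and no list had one within 10 kb below the lower edge. These peaks were not assigned to Lyz1, because its mm39 position was not used here. In GRCm38.p6 Lyz1 is 5074 bases long and the next protein-coding gene on this side, and the peaks may lie in it. With peaks chained across gaps of up to 10000 bases, they joined the Lyz2 peaks in 1 locus with 1, 2, 0 and 2 peaks in WT 1, WT 2, CKO 1 and CKO 2, which was then no longer WT-only. At that scale 3.65% of 18513 loci were WT-only. Chained across gaps of up to 5000 bases they stayed apart from Lyz2, and Lyz2 was one of 1263 WT-only loci among 27045 (4.67%).

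The listed peaks around Lyz2 ranked below those at the gene. Within 200 kb of the gene there were 21 other regions on the minus strand and no peak on the plus strand. Of the 21 regions, 17 had a peak in 1 list only, 3 had peaks of both genotypes, 1 was WT-only and 0 were CKO-only. The WT-only region, at bases 116914684 to 116914851, had percentiles of 14.36 in WT 1 and 32.26 in WT 2. The regions with peaks of both genotypes began at bases 117060198 (WT 2 and CKO 2), 117191980 (WT 2 and CKO 1) and 117196924 (WT 1 and CKO 1). Each CKO list thus shared at least 1 region on this strand with a WT list within 200 kb, all of them outside Lyz2. Whether a peak at Lyz2 itself could have been detected in CKO was not tested. The highest percentile of any peak among the 21 regions was 91.76, against 99.92 or more for the 3 Lyz2 peaks.

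Part of each authors' call set is not in the lists, and the peak numbers show where calls may be missing. Peak names carry a number that rose with position along each chromosome, over both strands, without exception in all 4 lists. A jump between neighbouring peaks thus marks numbers whose peaks are not listed, provided that every call was numbered. In CKO list 2 the last peak below Lyz2, ending at 117060395, and the first above it, starting at 117123753, had consecutive numbers, so 0 numbers were missing across the gene. In CKO list 1 the flanking peaks, ending at 116937792 and starting at 117185326, were 247533 bases apart and 8 numbers between them were missing. The lists do not show where these 8 calls lay, or whether any was at Lyz2.

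The WT lists differed in the same way. WT list 2 had 0 missing numbers from the last peak below Lyz2 to the first above it. WT list 1 had 2 missing numbers below its Lyz2 peak, over the bases from 117051637, and 2 above it, up to the peak starting at 117180840. A call of WT list 1 at the second Lyz2 region may therefore be among the missing ones. The absence of a call at Lyz2 thus rests on an unbroken run of numbers in CKO list 2 and not in CKO list 1. For comparison, among the 3210 WT-only regions the run of numbers was unbroken in CKO list 1 for 39.5%, in CKO list 2 for 41.8% and in both for 22.1%.

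**Figure D3:**
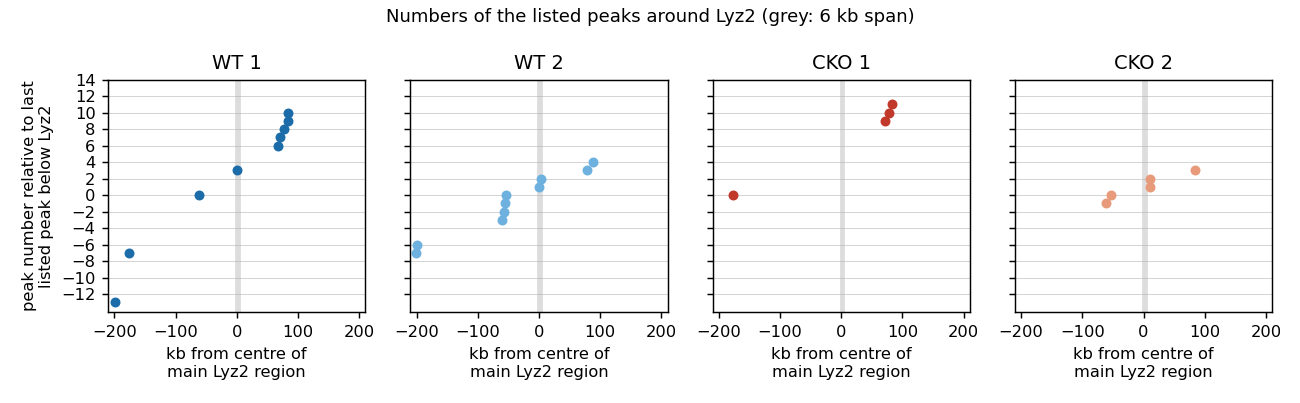
Number of each listed peak, counted from the last listed peak below Lyz2, against distance in kb from the centre of the shared Lyz2 region, within 200 kb (grey, the 6 kb taken as Lyz2; one panel per list, each point a peak). Across the grey band the points climb in steps of 1 in WT 2 and CKO 2, while WT 1 climbs by 3 on each side of its Lyz2 peak and CKO 1 by 9 at once, which leaves 4 and 8 numbers without a listed peak.

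Among the 10 strongest peaks of each WT list, Lyz2 was the only one held by both WT lists and neither CKO list. Of the 10 highest-scored peaks of WT list 1, 8 overlapped a peak of at least 1 CKO list, 1 was in WT list 1 alone, and 1 was Lyz2. Of the 10 highest of WT list 2, 3 overlapped a CKO peak, 6 were in WT list 2 alone, and 1 was again Lyz2. Over the 100 highest peaks, 7 of WT list 1 and 11 of WT list 2 lay in regions of both WT lists alone. The CKO lists had such peaks too: 15 of the 100 highest of CKO list 1 and 10 of CKO list 2 lay in regions held by both CKO lists alone. A strong peak confined to the 2 lists of a genotype was thus found in both directions.

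By rank, no other region with this pattern stood as high in both WT lists. The shared Lyz2 region was the only one of the 3210 WT-only regions at percentile 99.9 or higher in both WT lists, and none of the 2741 CKO-only regions reached it in both CKO lists. At percentile 99 or higher there were 10 WT-only regions (0.31%) and 9 CKO-only regions (0.33%). At percentile 90 or higher there were 82 (2.55%) and 59 (2.15%). These ranks are those for which the gene was chosen.

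The nearest listed knockout peak was far from Lyz2 in CKO list 1 and at a common distance in CKO list 2. The shared Lyz2 region lay 71233 bases from the nearest minus-strand peak of CKO list 1 and 9660 bases from that of CKO list 2. Listed peaks around the gene were sparse in WT as well. Outside Lyz2, the nearest minus-strand peaks of WT lists 1 and 2 lay 62118 and 53360 bases from this region. Over the 3210 WT-only regions the median distance was 4234 bases for CKO list 1, and 191 regions (6.0%) lay as far or farther. For CKO list 2 the median was 5319.5 bases and 1131 regions (35.2%) lay as far or farther, so this distance was not unusual. WT-only regions lack an overlapping CKO peak by definition, so only the distance beyond that could vary, and it was not tested. The distances count listed peaks only. In CKO list 1, 8 numbers are missing across the gene, so an unlisted call may lie nearer to Lyz2 than 71233 bases.

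The 10 regions most like the shared Lyz2 region were found by the mean absolute difference of their 4 within-list percentiles from those of Lyz2, with 0 for a list without a peak. The likeness is over 4 lists and takes in the values by which Lyz2 was chosen. All 10 were WT-only, with differences of 0.038 to 0.332 percentile points among 75388 other regions. They ranked 12th to 301st in WT list 1 and 13th to 141st in WT list 2. Their class and high ranks largely follow from the measure, since Lyz2 counts as 0 in both CKO lists and stands near the top of both WT lists.

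The closest 3 lay on chromosome 17 at bases 45880166 to 45880313, chromosome X at 9302947 to 9303202 and chromosome 15 at 83038336 to 83038594, all on the minus strand. The next were on chromosome 10 plus strand at 51371312 to 51371602, chromosome 6 plus strand at 29467751 to 29467952, chromosome 11 minus strand at 120238573 to 120238701 and chromosome 2 plus strand at 129473733 to 129473955. The last were on chromosome 12 minus strand at 51838020 to 51838222, chromosome 17 minus strand at 45881592 to 45881653 and chromosome 10 plus strand at 60134877 to 60134902. Of the 10, 9 lay in a chain of peaks, across gaps of up to 5000 bases, that held a CKO peak. The region on chromosome 11 was the exception, where the WT lists held 1 peak each and the CKO lists none. The shortest distance to a CKO peak was 113 bases, at the first of the chromosome 17 regions. None of the 10 lay as far as Lyz2 from both CKO lists at once. The chromosome 11 region lay farther than Lyz2 from CKO list 2 (25286 against 9660 bases) and nearer to CKO list 1 (22821 against 71233 bases). Lyz2 and the chromosome 11 region thus had no listed CKO peak within such a chain, while the other 9 had one nearby. The chains of those 9 held 1 to 6 peaks of WT list 1 and 2 to 6 of WT list 2. Lyz2 held 1 and 2, and the chromosome 11 region 1 and 1. Whether a nearby CKO peak goes with the number of peaks in a chain was not tested.

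**Figure D4:**
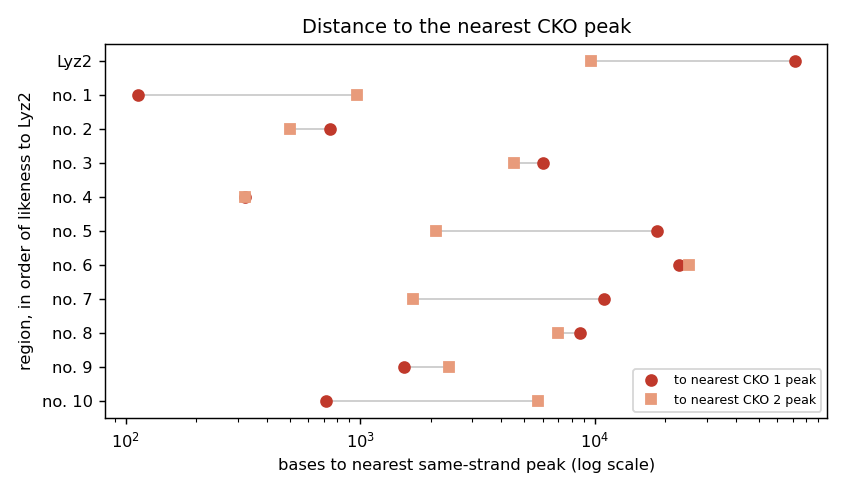
Bases from the shared Lyz2 region, and from each of the 10 regions most like it in their order of likeness, to the nearest same-strand peak of CKO 1 (circles) and CKO 2 (squares), on a log axis. Lyz2 lies 71233 and 9660 bases from them, the chromosome 11 region (no. 6) 22821 and 25286, and the first region 113 and 969.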

How the data were processed

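Each deposited list is a 6-column file (chromosome, start, end, peak name, score, strand) of MACS2 peaks of IP over input, per the labels, and the peak names show calling per library. Tools and build, from the submitters' processing notes, were MACS2 2.2.7.1, STAR 2.7.8a, fastp 0.20.1 and mm39. The sources used here do not say which quantity the deposited score is, or how the authors restricted peaks to mRNA and assigned strands. BED positions were turned into positions counting from 1.

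Peaks were merged, ranked within lists and counted in Python 3.11.15 with numpy 2.4.6 and pandas 2.3.3. Simulated lists with planted regions were used to check the merge. The gene, the lists and the rules were chosen with earlier results of these data known. No mm39 annotation or genome was used. For this reason Lyz1, the fixed gene lists (lysozyme family, antimicrobial, lysosomal, Cre driver loci, cell type markers) and the position in the mRNA were not analysed here, the labelled cell type was not checked, and regions took the place of genes in the rule for named genes, which was the 10 regions nearest to Lyz2 in their percentiles and the peaks within 200 kb. Promoter sequences are from RefSeq (GRCm38.p6), whose coordinates are not those of mm39.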

Additional observations from a re-analysis of the deposited data

How the results depend on the processing

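The Lyz2 difference of 1.5 peaks (WT minus CKO mean) kept its direction in all 11 alternatives. They could not have reversed it, because the CKO lists have no peak at the gene or within 1 kb of it on either strand. The kept direction is therefore no support for the difference, which was 0.5 for peaks of 200 bases or more. It was 2.0 with WT 1 left out and 1.0 with WT 2 left out. The difference of 231.5 covered bases ranged from 42.0 (without WT 2) to 421.0 (without WT 1) when 1 list was left out. The number of WT-only regions at Lyz2 moved from 1 to 0 for peaks of 200 bases or more and to 0 for chains across 10000 bases, a setting chosen after seeing the data; leaving out 1 list gave 1 to 2. Keeping the top 50% of each list or equal numbers could not remove the Lyz2 peaks, which rank high, and shows no stability.

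Over all regions, the WT-only count moved from 3210 to 1397 (top 50% of each list), 828 (peaks of 200 bases or more), 1263 and 676 (chains across 5000 and 10000 bases), and the CKO-only count from 2741 to 1027, 903, 1026 and 633: fewer peaks or wider units leave fewer regions to count. Leaving out 1 list gave 4270 to 17632 WT-only and 3769 to 17356 CKO-only regions, since a single list can then stand for a genotype. In the replicate block, as the mean of the pairs with the same number, the Lyz2 difference was 1.5 peaks (1.0 and 2.0 in the 2 pairs), and 20519.5 WT-only and 20229 CKO-only regions were counted, again because 1 list stands for each genotype. The labels do not say that a number marks a shared mouse or batch, and the deviations from the genotype mean of lists with the same number correlated at -0.005 over regions, which are not independent. The planned Lyz1 comparison was not run. The unknown depth limits all of this: a peak that is not listed cannot be told from one that was undersampled.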
